A study of Homo sapiens with 5 samples.

Results

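HMOX1 and 9 further genes of the NRF2 antioxidant system were followed across the 5 arrays of the series. The genes are HMOX1, NQO1, GCLC, GCLM, TXNRD1, SRXN1, SLC7A11, PRDX1, NFE2L2 and KEAP1. Members were named from general knowledge of the pathway, and HMOX1 was chosen on its signal on the leukotriene C4 array. Earlier results of these data had also shown NRF2 targets slightly high there, so the leukotriene C4 values are descriptions. All 10 genes were measured, out of 15374 measured genes, through 21 probe sets whose annotation gives that gene alone; 19 of the probe sets exceeded the floor (a signal of 48.7, below which values were not ordered) on at least 1 array.

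The arrays came from MonoMac6, a long-established monocytic line of human origin. The unstimulated culture had no added eicosanoid; the sources used here do not say whether it received the DMSO carrier. The other 4 cultures received leukotriene B4 or C4 or lipoxin A4 or B4, at 100 nM for 12 h. Each of the 5 conditions was read on 1 array of total RNA, so no difference has a replicate error and no p-value was computed. As a yardstick, the text uses the spread: the SD of a log2 difference between 2 stimulated arrays, pooled over the 500 genes of nearest signal. True differences between the compounds therefore enlarge it.

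NRF2, encoded by NFE2L2, is a transcription factor that KEAP1 holds in the cytoplasm and hands to a cullin ubiquitin ligase for breakdown. Electrophiles and oxidants modify cysteines of KEAP1, NRF2 then accumulates in the nucleus, pairs with small MAF proteins and binds antioxidant response elements. Its targets make glutathione, reduce thioredoxin and peroxiredoxins, and break down quinones and haem. HMOX1, the inducible haem oxygenase, has further inputs: the repressor BACH1, which haem removes, as well as heat shock and stress factors, and its known enhancers lie far upstream of its start.

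The binding letters of NRF2 are shown first. The genes were named from knowledge of the NRF2 pathway, so these letters are not independent of that choice and are a description only. The antioxidant response element core, TGACNNNGC, was searched on both strands in RefSeq windows (GRCh38.p14) from 250 bases before to 50 bases after a gene start. Windows were found for 7 of the 10 genes, 10 windows in all, and none for HMOX1, SLC7A11 or PRDX1. The core was present in windows of 3 genes: GCLM, TXNRD1 and KEAP1. Of all 35116 windows, 13.4% held it. The AP-1 site TGACTCA, which can overlap the core, was in none of the windows of these genes and in 4.95% of all windows. Each stretch is printed 5′ to 3′ along its gene's strand, with the core in capitals, as written or as its reverse complement.
GCLM, chr1:93909438-93909482, minus strand: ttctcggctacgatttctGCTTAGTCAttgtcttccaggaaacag
TXNRD1, upstream start, chr12:104215662-104215706, plus strand: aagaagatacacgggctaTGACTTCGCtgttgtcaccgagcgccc
TXNRD1, upstream start, chr12:104215753-104215797, plus strand: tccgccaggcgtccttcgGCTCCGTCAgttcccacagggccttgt
TXNRD1, downstream start, chr12:104286912-104286956, plus strand: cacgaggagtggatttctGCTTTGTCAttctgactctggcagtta
KEAP1, downstream start, chr19:10502776-10502820, minus strand: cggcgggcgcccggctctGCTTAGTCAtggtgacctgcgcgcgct

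The core began 34 bases before the start of GCLM, 99 and 8 bases before the upstream start of TXNRD1, 102 bases before its downstream start and 31 bases before the downstream start of KEAP1. GCLM and KEAP1 carried the same 9 letters. KEAP1 had a further core 54 bases before the same start. A match describes letters, not a bound site, and NQO1, GCLC, SRXN1 and NFE2L2 had no match in these windows.

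The signal of HMOX1 was 95.4 on the unstimulated array, 107.8 with leukotriene B4, 209.9 with leukotriene C4, 93.6 with lipoxin A4 and 130.4 with lipoxin B4. The leukotriene C4 array stood above the other 4, which lay together not far over the floor. Against unstimulated cells the log2 differences were 1.14 with leukotriene C4, a 2.20-fold higher signal, 0.45 with lipoxin B4, 0.18 with leukotriene B4 and -0.03 with lipoxin A4; the last turned to 0.12 after quantile normalization. The spread at this signal was 0.56, so the leukotriene C4 difference was 2.03 times the spread and the others were at most 0.81 times it. In the order of the 5 levels, leukotriene C4 came first by 0.69 over lipoxin B4, and the remaining neighbours did not differ beyond the spread. Since HMOX1 was chosen on its leukotriene C4 signal, its first place is a description and supports nothing further. The difference ranked 116 of 15374 genes on the leukotriene C4 array, and 176 genes were at least as far above their next highest array as HMOX1. HMOX1 has a single probe set, so no second probe set bears on this value.

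**Figure D1:**
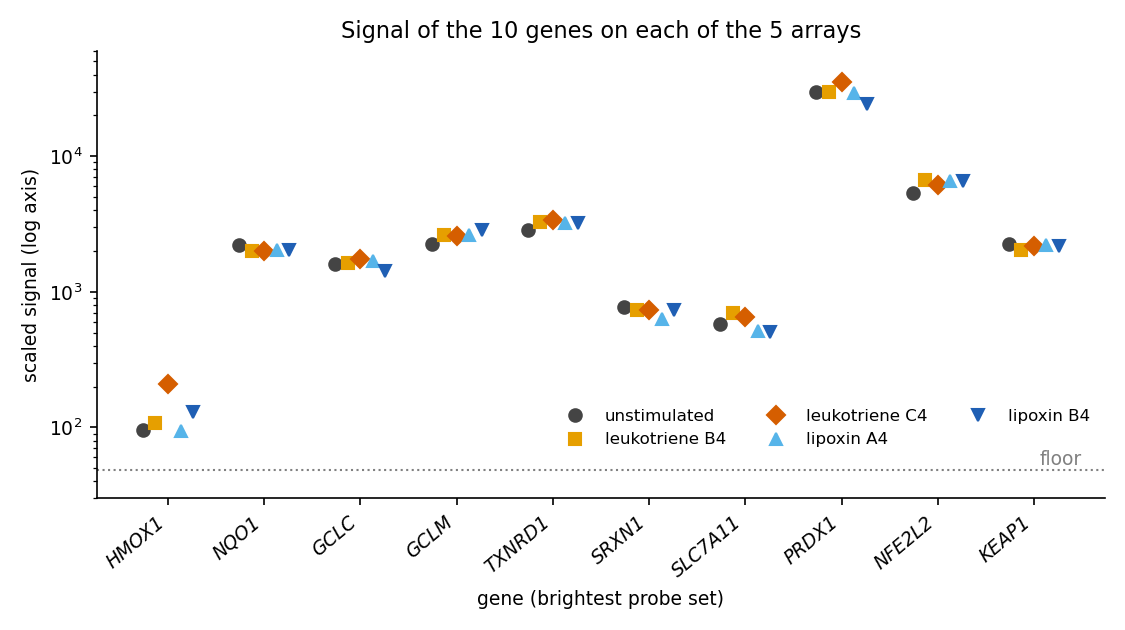
Scaled signal (log axis) of each of the 10 genes on its brightest probe set, with 1 point for each of the 5 arrays and the floor of 48.7 as a dotted line. HMOX1 lies at 209.9 on the leukotriene C4 array and between 93.6 and 130.4 on the others; no other gene has an array that far from the rest.

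Another measure moved along with HMOX1. The control probe set for the middle of 18S rRNA was 16.5-fold over the unstimulated array with leukotriene C4, 5.66-fold with lipoxin B4, 4.90-fold with leukotriene B4 and 1.96-fold with lipoxin A4, which is the order of HMOX1 on these 4 arrays. Its part in the HMOX1 values was not tested. The ratio of 3′ to 5′ control signals, a sign of RNA integrity, differed little between arrays, from 0.996 to 1.06 for GAPDH and from 1.10 to 1.14 for ACTB. Of 8 monocytic markers with a probe set, 7 were above the floor on all arrays, LYZ brightest at up to 49118, and FCGR1A was under it on every array. Among T-cell markers CD3G and CD2 were under the floor on every array and the highest value was 91.2 (CD5); B-cell and erythroid markers reached 167.8 (CD79A) and 185.3 (KLF1). PECAM1, listed with endothelium but also made by monocytes, reached 5139, and the epithelial keratin KRT18 reached 843.8, while KRT19 and ALB of the same list were under the floor on every array. The summed signals of these lists on the leukotriene C4 array lay within their range on the other arrays, except for B-cell markers (378.8 against 291.7 to 369.8), epithelial and liver markers (920.4 against 768.8 to 912.2) and monocytic markers (130638 against 98807 to 124583).

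Between compounds at the same dose and time, the HMOX1 contrasts with leukotriene C4 are again descriptions of the value that chose it. It was higher with leukotriene C4, the glutathione conjugate, than with leukotriene B4, which lacks the peptide and carries a second hydroxyl, by a log2 difference of 0.96. It was higher than with lipoxin A4 by 1.17 and than with lipoxin B4 by 0.69, and lipoxins A4 and B4, which differ in where their hydroxyls lie, were 0.48 apart. In 6 pairs of compounds, only leukotriene C4 against lipoxin A4 reached 2-fold, and only for HMOX1. Counted in spreads, the contrast of HMOX1 between leukotriene C4 and lipoxin A4 was 2.08, and that of PRDX1 between leukotriene C4 and lipoxin B4, a log2 difference of 0.54, was 2.62; the latter shrank to 0.08 after quantile normalization. SLC7A11 differed by 0.46 between leukotriene B4 and lipoxin B4, or 1.87 spreads, and its widest contrast was 0.45 after quantile normalization, where it was the widest among the other 9 genes. With 1 array per compound these differences have no interval.

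With leukotriene C4, HMOX1 was the single gene of the 10 that was at least 2-fold higher, and no member was 2-fold lower. Of all measured genes, 1.18% were 2-fold higher and 1.66% lower there. With the other 3 compounds 0 of the 10 genes were 2-fold apart in either direction. On the leukotriene B4 array 0.702% of all genes were 2-fold higher and 1.72% lower. On the lipoxin A4 array the shares were 0.702% and 1.69%, and on the lipoxin B4 array 0.507% and 1.96%. Read against such shares, 0 of 10 is near the background. The split of these background counts moved with the scaling: of the genes counted with lipoxin A4, 29.4% were higher, against 44.0% after quantile normalization, and with lipoxin B4 20.5% against 40.9%.

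The other 9 genes had a median log2 difference of 0.17 with leukotriene C4, with 6 above 0 and 3 below. The highest of them was PRDX1 at 0.25 and the lowest NQO1 at -0.14; after quantile normalization PRDX1 had 0.13 and SLC7A11 was highest at 0.16. All 9 had a mean signal over 500, and the 7097 genes of such signal had a median of 0.11 on this array, with 72.0% above 0. After quantile normalization the 2 medians were 0.09 and 0.03, and in the signals as deposited 0.10 and 0.04. On the leukotriene B4 array the median of these 9 genes was 0.03, and on the lipoxin A4 and B4 arrays it was -0.01 and -0.05, where bright genes had 0.05 in each case. Only the leukotriene C4 median thus lay above that of bright genes before quantile normalization, by less than the spread of any of the genes. After it, the medians with leukotriene B4 (0.04 against 0.02) and lipoxin A4 (0.014 against 0.011) lay just above as well. With HMOX1 included, the leukotriene C4 median was 0.19, against 0.08 when all probe sets of a gene were averaged.

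**Figure D2:**
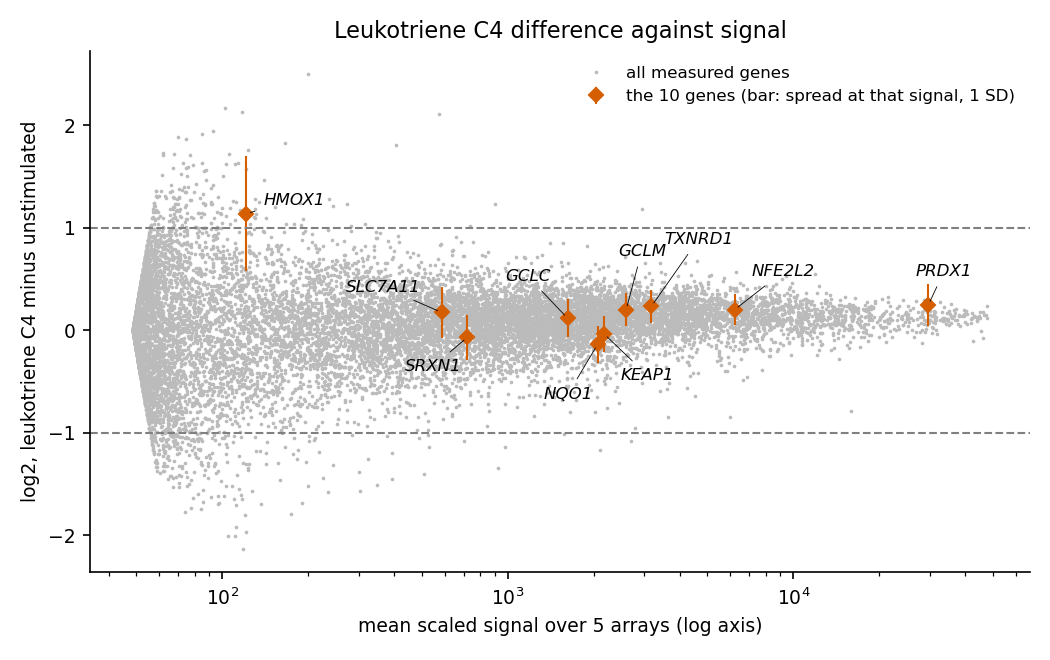
Log2 difference between the leukotriene C4 and unstimulated arrays against mean signal (log axis) for all measured genes in grey, with the 10 genes as diamonds, bars of 1 spread on each side and dashed lines at 2-fold. HMOX1 (1.14) is the only diamond past the line, at a signal where the grey points scatter widely; the other 9 lie between -0.14 and 0.25.

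No probe set of the sensor or the factor was 2-fold apart on any array. KEAP1 had signals of 2252 on the unstimulated array, 2023 with leukotriene B4, 2193 with leukotriene C4, 2233 with lipoxin A4 and 2175 with lipoxin B4, all within 1 spread (0.17) of the unstimulated value. NFE2L2 was at 5353 on the unstimulated array and higher on the other 4, at 6709 with leukotriene B4, 6152 with leukotriene C4, 6522 with lipoxin A4 and 6525 with lipoxin B4. Its log2 differences, 0.33, 0.20, 0.29 and 0.29, were between 1.35 and 2.18 times the spread, with leukotriene C4 the smallest. All 4 are measured against the same unstimulated array. A probe set annotated to NFE2L2 and 1 further gene was not used. The other 2 probe sets of NFE2L2 were dim and differed in sign: one gave 0.67 with lipoxin A4 and -0.39 with lipoxin B4, and the other was under the floor on 3 of 5 arrays. NFE2L2 activity is set mainly through protein stability, which these arrays do not measure.

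Glutathione synthesis depends on glutamate-cysteine ligase, whose catalytic subunit is GCLC and whose modifier subunit is GCLM, and on cystine brought in by SLC7A11. GCLM had signals of 2263 on the unstimulated array, 2634 with leukotriene B4, 2598 with leukotriene C4, 2638 with lipoxin A4 and 2873 with lipoxin B4. The unstimulated array was the lowest and the lipoxin B4 array the highest, with a log2 difference of 0.34, or 2.12 times the spread; leukotriene C4 gave 0.20. Its other 2 probe sets were also higher on every stimulated array, one between 0.29 and 0.54 and again highest with lipoxin B4, the other between 0.13 and 0.55 and highest with leukotriene C4. GCLM was thus the only gene of the set with more than 1 measured probe set in which all of them had 1 sign on all 4 arrays, under each of the 3 scalings. A single unstimulated array stands behind all of these differences.

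GCLC lay between 1436 with lipoxin B4 and 1743 with leukotriene C4, with 1608 on the unstimulated array. Its differences were within 1 spread (0.19), and a second probe set gave 0.27 with leukotriene C4 and 0.06 with lipoxin B4. The small GCLC difference with leukotriene B4, 0.03, turned to -0.02 after quantile normalization and to -0.01 as deposited. SLC7A11, the light chain of the cystine and glutamate exchanger, had signals of 580.2 on the unstimulated array, 699.7 with leukotriene B4, 654.7 with leukotriene C4, 510.2 with lipoxin A4 and 508.3 with lipoxin B4. The leukotriene arrays were above the unstimulated one and the lipoxin arrays below it, by at most 1.09 times the spread of 0.25. Its other probe sets did not repeat that order: one was lower on all 4 arrays, between -0.29 and -0.62, and the other was -0.20 with leukotriene C4 and 0.20 with lipoxin A4.

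The thioredoxin branch comprises TXNRD1, the selenoenzyme that reduces thioredoxin, PRDX1, a peroxidase that thioredoxin regenerates, and SRXN1, which repairs overoxidised peroxiredoxins. TXNRD1 had signals of 2869 on the unstimulated array, 3273 with leukotriene B4, 3371 with leukotriene C4, 3194 with lipoxin A4 and 3218 with lipoxin B4. The unstimulated array was the lowest, and the differences, 0.16 to 0.23, were 0.96 to 1.45 times the spread; its second probe set was under the floor on all arrays. PRDX1 was at 29961 on the unstimulated array, 29982 with leukotriene B4, 35565 with leukotriene C4, 29516 with lipoxin A4 and 24450.4 with lipoxin B4. It was highest with leukotriene C4 (0.25, or 1.20 times the spread, but 0.13 after quantile normalization) and lowest with lipoxin B4 (-0.29), but the latter turned to 0.05 after quantile normalization, and its differences with leukotriene B4 and lipoxin A4, both near 0, also changed sign with the scaling. SRXN1 was highest on the unstimulated array at 768.7, with 735.1, 731.6, 633.1 and 740.4 on the leukotriene B4, leukotriene C4, lipoxin A4 and lipoxin B4 arrays. Its widest difference was -0.28 with lipoxin A4, or 1.27 times the spread in size.

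NQO1, the quinone reductase often used as a readout of NRF2, was at 2216 on the unstimulated array, 2000.2 with leukotriene B4, 2012 with leukotriene C4, 2029.9 with lipoxin A4 and 2047 with lipoxin B4. The stimulated arrays lay within 0.03 of each other and were lower than the unstimulated one by less than 1 spread (0.18). A second probe set was instead higher with leukotriene C4 (0.18), and the third gave -0.12. The direction of NQO1 therefore differed between its probe sets.

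**Figure D3:**
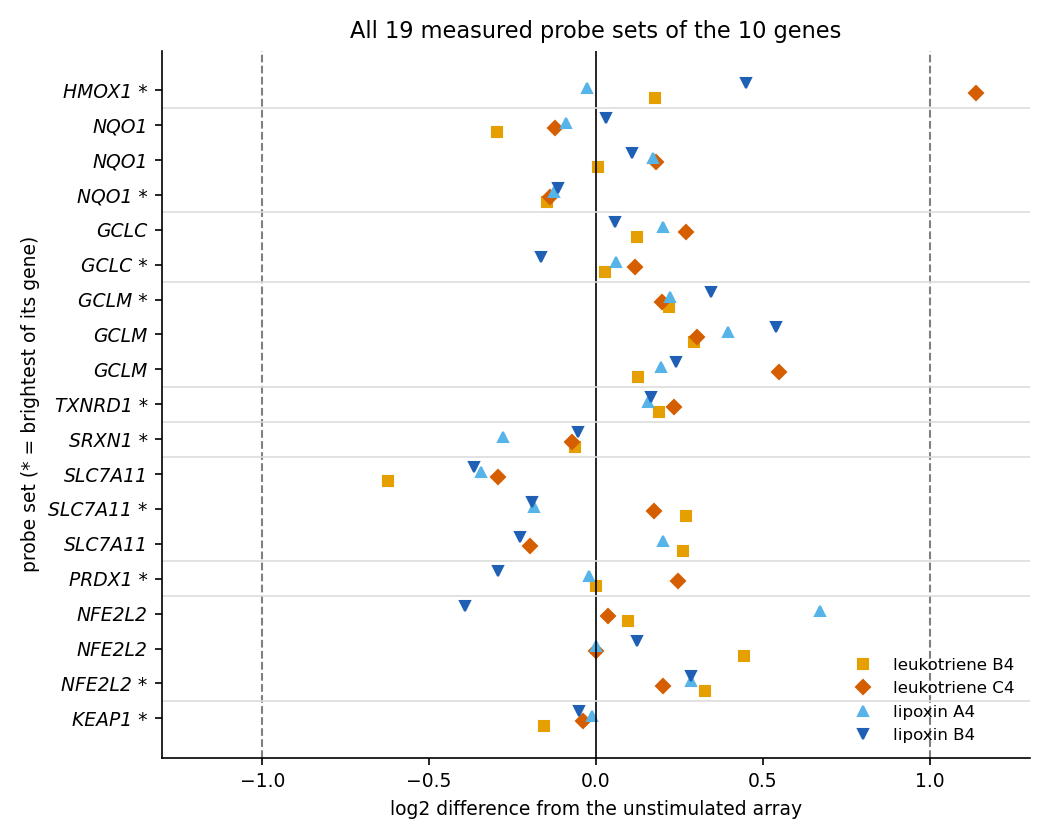
Log2 difference from the unstimulated array (horizontal axis) for each of the 19 measured probe sets of the 10 genes, with 1 marker per eicosanoid and dashed lines at 2-fold. HMOX1 with leukotriene C4 (1.14) is the only marker past the line; elsewhere on that array the probe sets lie between -0.29 and 0.55, and the probe sets of NQO1 and SLC7A11 disagree in sign there, as do those of GCLC and NFE2L2 with lipoxin B4.

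Over all 19 measured probe sets, 12 were above 0 with leukotriene C4 and 6 below, against 14 and 5 on the leukotriene B4 array and 10 and 8, or 10 and 9, on the lipoxin A4 and B4 arrays. Probe sets of 1 gene are not independent of each other, and all 4 comparisons share the unstimulated array. Over 40 combinations of gene and eicosanoid, 5 changed sign with the scaling: HMOX1 with lipoxin A4, GCLC with leukotriene B4, and PRDX1 with leukotriene B4 and both lipoxins.

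The wider pathway was read through 6 lists of 76 genes, none of them members, of which 68 were measured. Read on brightest probe sets, 0 of the 68 were 2-fold apart in either direction with each of the 4 eicosanoids. This is near the background shares of 0.507% to 1.18% higher and 1.66% to 1.96% lower. Other probe sets of the same genes passed 2-fold both ways. With leukotriene C4, those of TXN (1.18) and TKT (1.42, from the floor) were higher. Those of CREBBP (-1.05) and SLC48A1 (-1.36, down to the floor) were lower. On brightest probe sets the 68 had a median of 0.11 with leukotriene C4, with 47 above 0 and 19 below (69.1% above), against 0.06 and 57.1% over all measured genes. Most of the 68 were bright, however: the 51 with a mean signal over 500 had a median of 0.10, with 37 above 0, close to the median of 0.11 and the 72.0% above 0 among all genes of such signal. On the leukotriene B4, lipoxin A4 and lipoxin B4 arrays the median was 0.03, 0.02 and -0.02, where all genes had 0.00.

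Haem breakdown continues from HMOX1 to biliverdin reductase. BLVRA, biliverdin reductase A, had signals of 1458 on the unstimulated array, 1656 with leukotriene B4, 1962 with leukotriene C4, 1504 with lipoxin A4 and 1490.1 with lipoxin B4. It was highest with leukotriene C4, by 0.43, or 2.28 times its spread, and its other 3 measured probe sets were also highest there, by 0.46, 0.59 and 0.41, except that in the signals as deposited the first of these was marginally higher with leukotriene B4 (0.391 against 0.387). BLVRB, the second biliverdin reductase, was lower with leukotriene C4 (1039 against 1292, -0.31) and had the lowest value of the haem and iron list, whose median was 0.04 with 6 of 9 genes above 0. HMOX2, the constitutive haem oxygenase, gave 0.16 with leukotriene C4 on its brightest probe set and 0.82 on a dimmer one. The dimmer probe set was also higher with lipoxin A4 (0.71), leukotriene B4 (0.44) and lipoxin B4 (0.295). BLVRA was named as the highest of its list with leukotriene C4.

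The list of transcription partners and adaptors (11 of 12 genes measured) had a median of 0.10 with leukotriene C4, with 6 above 0. RBX1, the RING subunit of the KEAP1 ligase, was highest at 5740 against 4195 (0.45, at a spread of 0.15). RBX1 was also higher with leukotriene B4 (0.30), lipoxin B4 (0.32) and lipoxin A4 (0.24). BPTF, a chromatin remodeller, was lowest at -0.29, with other probe sets between -0.73 and 0.15. BACH1, the repressor of HMOX1, had log2 differences on its brightest probe set of 0.39 and 0.21 with leukotrienes B4 and C4 and of 0.46 and 0.35 with lipoxins A4 and B4, and of -0.22 with leukotriene C4 on another.

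Of thioredoxin and peroxide genes 13 of 15 were measured, with a median of 0.06 and 8 above 0 with leukotriene C4. TXN, thioredoxin, entered at 0.24 there on its brightest probe set. Its other, dimmer probe set gave 1.18 with leukotriene C4, 1.05 with lipoxin B4, 0.71 with leukotriene B4 and 0.23 with lipoxin A4. The other probe sets of PRDX2 were lower with leukotriene C4 (-0.18, -0.32 and -0.45). SOD2, the mitochondrial superoxide dismutase, was highest there at 446.0 against 272.0 (0.71), but higher still with lipoxin B4 (0.99), and the stress protein SESN2 was lowest (-0.23). Among 13 glutathione genes the median was 0.11, with 11 above 0 and 0 below; the highest was CHAC1, which breaks glutathione down (120.3 against 73.9, 0.70), and CHAC1 was also higher with lipoxin A4 (0.80), lipoxin B4 (0.64) and leukotriene B4 (0.45). GPX2 was at the floor on both the leukotriene C4 and the unstimulated array. These values are of brightest probe sets, and other probe sets went both ways. GSR gave 0.02 with leukotriene C4 on its brightest, but 0.67 (2547 against 1602) on its other. The latter was also higher with lipoxin B4 (0.49), leukotriene B4 (0.36) and lipoxin A4 (0.20). GSTM1 gave 0.64 with leukotriene C4 on its brightest and -0.84 on its other.

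NADPH supply had a median of 0.19 over 5 of 6 genes, 4 of them above 0. ME1, the malic enzyme, was highest at 583.7 against 469.9 (0.31), but was also higher with lipoxin A4 (0.40), leukotriene B4 (0.27) and lipoxin B4 (0.23), and PGD, phosphogluconate dehydrogenase, lowest at -0.10. Detoxification and export had a median of 0.32 over 17 of 20 genes with 12 above 0. Of the 17, 4 were under the floor on some array, among them OSGIN1, which exceeded it with leukotriene C4 alone (66.3), and ALDH3A1, under it in unstimulated cells; the 13 above the floor on all arrays had a median of 0.28, with 8 above 0. Its highest gene, the aldo-keto reductase AKR1C2, had 166.0 against 97.7 (0.77) and nearly the same with the other 3 compounds (0.73 to 0.78); a second probe set gave 0.13, and its close paralogs may share its probes. Its lowest gene was the carboxylesterase CES1 (-0.13). CBR1 of this list had 3794 with leukotriene C4 against 2580 (0.56, at a spread of 0.16). With leukotriene B4 CBR1 gave 0.55, and with lipoxins A4 and B4 0.06 and 0.23. The same list had a median of 0.12 on the leukotriene B4 array and of 0.09 and 0.13 on the arrays of lipoxins A4 and B4.

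**Figure D4:**
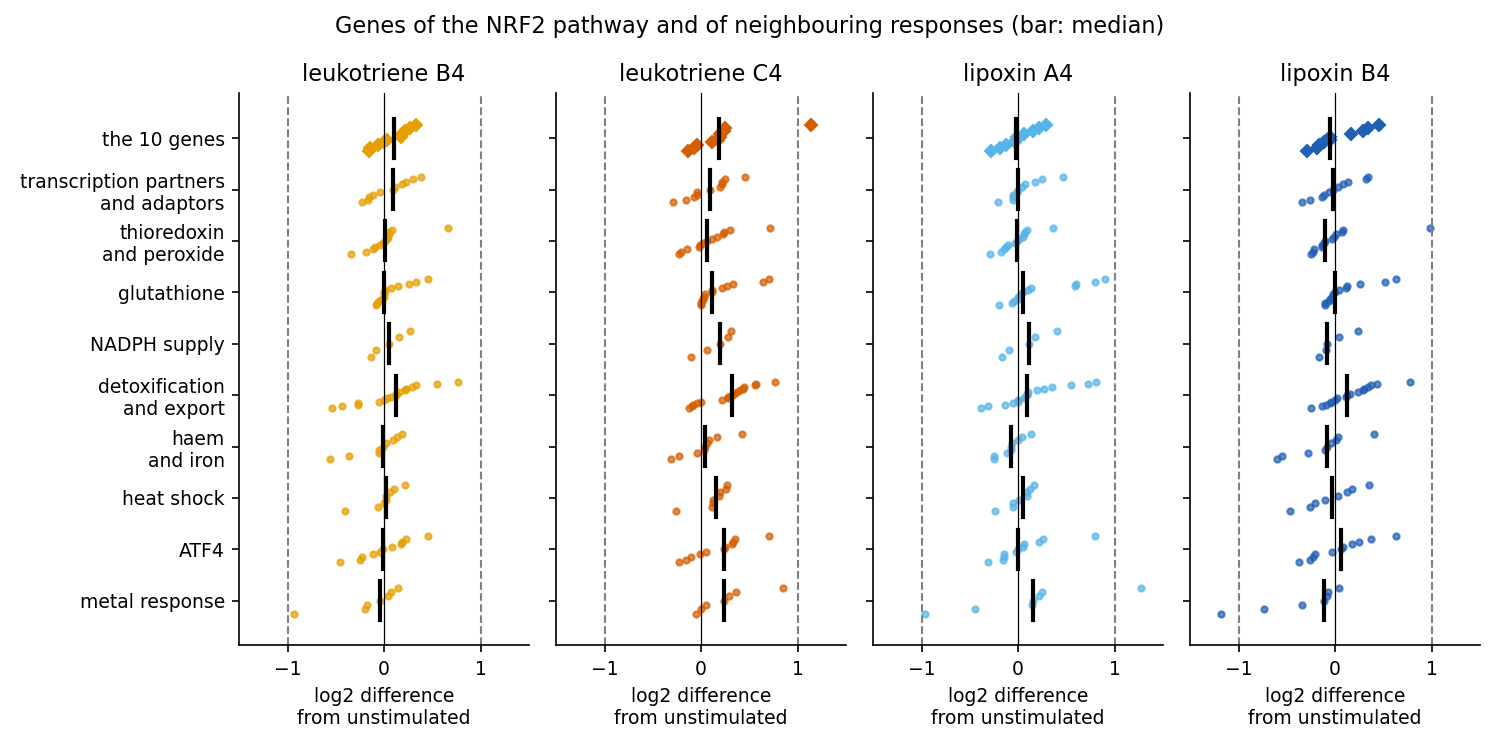
Log2 difference from the unstimulated array for the 10 genes (top row), the 6 lists of the NRF2 pathway and 3 lists of neighbouring responses, in 1 panel per eicosanoid; points are genes, black bars medians and dashed lines 2-fold. HMOX1 at 1.14 with leukotriene C4 stands apart in the top row, and no gene of the 6 pathway lists, each on its brightest probe set, passes a dashed line in any panel.

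The genes whose pattern over the 4 comparisons was most like that of HMOX1 were sought among 11015 other genes above the floor on all arrays, by the root mean square of the differences from its 4 log2 values. The nearest were CDH24, a cadherin, at 0.17, the butyrophilin pseudogene BTN2A3P at 0.18, the pseudogene ELK2AP at 0.19, the homeobox gene HESX1 at 0.20 and B9D2, a protein of the ciliary transition zone, at 0.20. CDH24 had signals of 132.3 on the unstimulated array, 128.3 with leukotriene B4, 271.2 with leukotriene C4, 151.3 with lipoxin A4 and 189.5 with lipoxin B4, and its second probe set gave 0.75 with leukotriene C4 and -0.74 with lipoxin B4. Pseudogenes share sequence with their parent genes, so their values are uncertain. BTN2A3P and HESX1 had unstimulated signals of 59.5 and 56.1, just over the floor. Their spreads were 0.64 and 0.61, and each had 1 measured probe set. No member or gene of the pathway lists was among these nearest. Of the other 9 members, TXNRD1 came closest, at rank 1933 with 0.48, and NQO1 farthest, at rank 8292 with 0.72. Ranks were read for members only, so genes of the pathway lists may lie closer than TXNRD1.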

How the data were processed

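The members and gene lists were chosen with earlier results of these data known. The authors deposited 1 linear intensity for each of 54675 probe sets and array, computed in GCOS 1.4 per the submitters' processing notes. The sources used here do not state its algorithm, and no detection calls were used. The deposited signals had a trimmed mean of 500.1 on every array (2% trimmed at each end), so the arrays had been scaled before deposit. Signals were converted to log2 and scaled to an equal median of the upper 50% of probe sets (factors 0.978 to 1.03), then raised to a floor, the 50th percentile of mean log2 signal. Probe sets were named where the platform annotation gives 1 symbol (41097); 1801 have several and 11777 are not listed. Symbols came from the GRCh38.p14 gene table through the gene identifier (41043 matched, 0 altered). Each gene was read on its brightest probe set, and counted at a 2-fold difference. Probes of 1 gene can bind related transcripts. The counting was tested on simulated data, with known changes placed only in genes with a mean signal over 500. The simulated noise was smaller than the spread. That test therefore did not cover genes as dim as HMOX1. Alternatives were floors at the 30th and 70th percentile (signals 17.4 and 243.9), quantile normalization, the signals as deposited and the mean of a gene's probe sets. Named genes were the 10 members, genes of the fixed lists at least 2-fold apart or at either end of their list with leukotriene C4, and the 5 genes nearest to HMOX1. BACH1, HMOX2, CBR1 and PECAM1 were named outside that rule, after their values were seen. The same holds for TXN, PRDX2, TKT, CREBBP, SLC48A1, GSR, GSTM1, ATF3, MT1F and MTF1, named for probe sets other than their brightest. Python 3.11.15, pandas 2.3.3 and numpy 2.4.6 were used.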

Additional observations from a re-analysis of the deposited data

How the results depend on the processing

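Of 88 values recomputed under an alternative, 87 stayed within 1 spread or, for counts, kept their value. This tally says little about stability, because the spread describes single genes and is wide for a median over the members (0.182). The members' median with leukotriene C4 fell from 0.187 to 0.099 after quantile normalization. With the mean of probe sets it was 0.083, and both counted as within the spread. Most of the counts were 0 under every setting. HMOX1 differences at the 70th percentile floor are not among the 88. With the floor at the 70th percentile HMOX1 was not measured, so its differences could not be computed there and the count of members at least 2-fold higher with leukotriene C4 was 0 in place of 1, since that floor lies above every HMOX1 signal. The lower floor and the mean of probe sets could not alter the HMOX1 difference, since its single probe set lies above that floor on every array. With leukotriene C4 the difference was 1.24 after quantile normalization and 1.07 in the signals as deposited, against 1.14. Counts over all genes depended on the floor: with it at the 30th percentile 671 to 1217 genes were higher and 1355 to 1626 lower, at the 70th percentile 3 to 6 and 5 to 17, against 78 to 182 and 255 to 302. After quantile normalization the counts with lipoxin B4 were 135 higher and 195 lower, against 78 and 302. No paired analysis was possible because each group has 1 array, and for the same reason no array could be left out. HMOX1 lies where the SD of differences between stimulated arrays is 0.51 (signals from 100 to 200), against 0.17 above 2000.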

Other observations

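The 3 lists of neighbouring responses, which hold genes of heat shock, of the ATF4 response and of metal stress, were read in the same way. Of 11 heat shock genes 8 were measured, and the HSPA genes of the list were not among them. The measured genes had a median log2 difference of 0.15 with leukotriene C4, with 7 of 8 above 0. All had a mean signal over 500, and genes of such signal had a median of 0.11 there, with 72.0% above 0. The chaperonin HSPD1 was highest (0.27) and the factor HSF1 lowest (-0.26). Genes of the ATF4 response had a median of 0.24 over 11 genes, 7 of them above 0, and CHAC1 and SESN2 at either end. On brightest probe sets none of these genes was 2-fold apart with any compound, which is near the background of 0.507% to 1.18% of all genes higher and 1.66% to 1.96% lower. Of the other probe sets of ATF3, one gave -1.49 with leukotriene B4 and another 0.75. With leukotriene C4 these gave -0.96 and -0.30, against 0.36 on the brightest.

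Of 7 measured genes of the metal response, 6 were above 0 with leukotriene C4 on brightest probe sets, with a median of 0.24. The highest was MT1G (169.0 against 93.7, 0.85). Other probe sets went both ways on that array. MT1E gave -0.055 on its brightest and 1.18, from the floor, on its other. MT1F gave 0.24 on its brightest and -1.40, down to the floor, on its other. For MTF1 the brightest gave 0.36 and the others 0.26 and -0.52. MT1G was 226.4 with lipoxin A4, a log2 difference of 1.27, and 56.1 with lipoxin B4. MT1E was lower with lipoxin B4, at 78.5 against 178.6 (-1.19), while its other probe set was higher there by 1.82. That other probe set was at the floor in unstimulated cells and was higher by 1.18 to 2.09 with the remaining compounds. Metallothioneins are near-identical copies, so values of single members are uncertain.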
